A study of Nomascus leucogenys with 9 samples.

Results

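Immunoglobulin constant region genes were examined in cell lines of 9 gibbons of the species Nomascus leucogenys, the northern white-cheeked gibbon. The lines are lymphocytes immortalised in culture with Epstein-Barr virus (EBV), and each line came from a different animal. The lines form 1 group with no treatment, genotype or contrast in the labels, and the sources used here state neither age nor sex. Asia is line 1, Bobby is line 2, China is line 3, Khao is line 4, Melouprey is line 5, Nancy is line 6, Phyllis is line 7, Ricky is line 8 and Vok is line 9. Each line is 1 library, so animal, culture and transformation event cannot be told apart, and 2 lines with neighbouring values cannot be tested against each other. In bulk RNA, fewer cells of a type and less RNA per cell cannot be told apart either.

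The genes were chosen by a list of 10 human Ensembl identifiers, each paired with a gene name. The list was drawn up after the IGLC7 row had been seen to cover a wide range among these lines, so the spread of IGLC7 is given as a description, with no test. Of the 10 identifiers, 4 had a row among the 15356 rows of the table. The rows present were IGLC7 (ENSG00000211685), IGLC2 (ENSG00000211677), IGLL5 (ENSG00000254709) and IGHD (ENSG00000211898), and all 4 lay above the filter on low values that left 12590 rows. No row was found for IGLC1 (ENSG00000211675), IGLC3 (ENSG00000211679), IGKC (ENSG00000211592), IGHM (ENSG00000211899), IGHG1 (ENSG00000211896) or IGHA1 (ENSG00000211895). The kappa light chain and the heavy chains of IgM, IgG and IgA were therefore not analysed here, and the balance of kappa to lambda could not be computed. A further 6 constant region genes, IGHG2, IGHG3, IGHG4, IGHA2, IGHE and IGLC6, were looked for under their human identifiers and had no row either.

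An antibody pairs heavy chains with light chains, and the constant region of each chain is encoded apart from the variable region that binds antigen. A B cell clone as a rule uses either kappa or lambda light chains, and the lambda locus carries several constant genes of near-identical sequence. IgD is made with IgM from 1 long heavy chain transcript by alternative splicing, is typical of resting mature B cells, and is lost when a cell switches class. A B cell that becomes a plasma cell expands its secretory machinery and releases antibody in place of displaying it.

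Levels are log2 values as deposited, on a scale that is not per length, so a level of 1 gene is not compared with that of another. Levels in parts per 1000000 (ppm) refer to the sum of a line's values raised to base 2, which lay between 13728358 and 14059842 in all lines. The depth of the libraries is unknown. Names are those of human genes attached to gibbon reads. Reads of IGLC7 and IGLC2 may be split with the other lambda constant genes, and IGLL5 shares its joining and constant exons with the first lambda constant gene, so the assignment of reads among these rows is uncertain.

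The lambda constant row IGLC7 varied most among the 4. In log2 units, line 1 had 7.52, line 2 had 12.89, line 3 had 9.93, line 4 had 10.40, line 5 had 9.07, line 6 had 7.31, line 7 had 12.03, line 8 had 10.54 and line 9 had 12.05. Lines 1 and 6 were low, lines 2, 7 and 9 were high, and the other 4 were spread between them. The mean was 10.19 ± 1.97 log2 units (SD, n = 9). On the ppm scale the row ran from 11.3 ppm in line 6 to 541.3 ppm in line 2. The range, taken from the log2 levels, was 47.9-fold, and without line 2 it was 26.7-fold.

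IGLC2, another lambda constant gene, was low in the same pair of lines and more even elsewhere. It stood at 9.37 log2 units in line 1 and 10.75 in line 6. Line 2 had 12.48, line 3 had 12.67, line 4 had 12.42, line 5 had 11.97, line 7 had 12.34, line 8 had 12.72 and line 9 had 13.32. Those 7 lines lay within 1.35 log2 units of each other, so most of the range of the row came from lines 1 and 6. The mean was 12.004 ± 1.21 log2 units (SD, n = 9). In ppm the row ran from 47.4 to 745.5. The full range, taken from the log2 levels, was 15.5-fold. It was 5.95-fold without line 1 and 10.2-fold without line 9.

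IGLL5 encodes a lambda-like polypeptide and needs no rearrangement to be transcribed. It was the most even of the 4 rows. In log2 units, line 1 had 9.58, line 2 had 9.19, line 3 had 8.73, line 4 had 9.50, line 5 had 9.78, line 6 had 9.58, line 7 had 9.67, line 8 had 9.31 and line 9 had 9.91. Lines 1 and 6, the low lines for both lambda constant rows, stood at the middle of this order, and line 3 was lowest. The mean was 9.47 ± 0.35 log2 units (SD, n = 9), and the range was 2.26-fold, or 1.65-fold without line 3.

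IGHD, the heavy chain constant gene of IgD, was highest in line 3, at 11.39 log2 units. Next came line 6 at 10.39 and line 1 at 10.26. Line 4 stood at 9.52, line 8 at 9.08, line 5 at 8.50, line 9 at 8.35 and line 2 at 8.33, and line 7 was lowest at 7.58. The mean was 9.27 ± 1.22 log2 units (SD, n = 9). The order was graded, with 0.996 log2 units as the widest step, between lines 3 and 6. On the ppm scale the row ran from 13.7 to 191.4 ppm. The range, taken from the log2 levels, was 14.02-fold. Without line 3 it was 7.03-fold and without line 7 it was 8.34-fold.

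**Figure D1:**
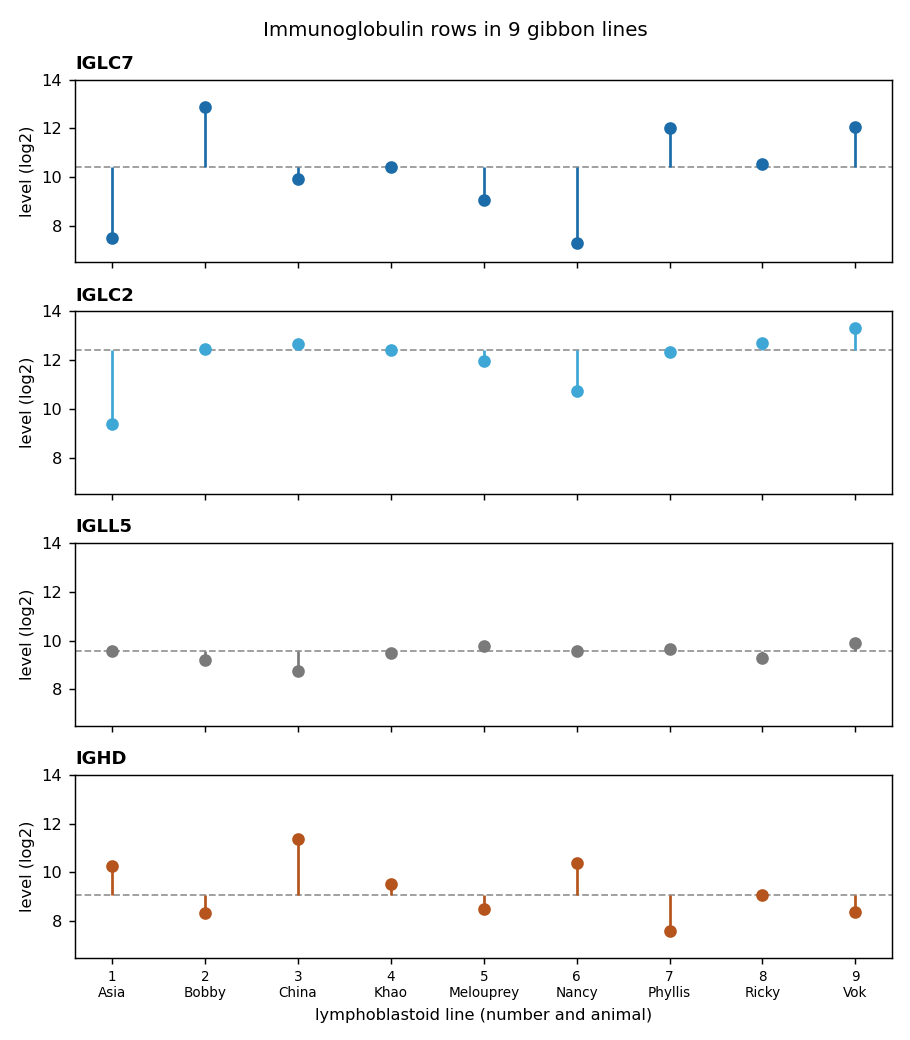
Levels of IGLC7, IGLC2, IGLL5 and IGHD (y axes, log2 units as deposited) in the 9 lines (x axis). Each point is 1 library, the dashed line is the median of the row and the stems show the distance from it. Lines 1 and 6 lie below the median for both lambda constant rows and above it for IGHD, while IGLL5 stays between 8.73 and 9.91.

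Set beside all kept rows, 3 of the 4 immunoglobulin rows belonged to the widest part of the table. A range of at least 2-fold was reached by all 4, against 26.4% of all kept rows, and a range of at least 4-fold by IGLC7, IGLC2 and IGHD, against 6.18%. The median row of the table ranged over 0.68 log2 units. IGLC7 ranged over 5.58 log2 units, and 15 rows were wider. IGLC2 ranged over 3.95 log2 units with 56 wider rows, and IGHD over 3.81 with 63 wider rows. IGLL5 ranged over 1.17 log2 units, and 20.1% of all kept rows were wider. Since IGLC7 was picked for its range, these counts describe the rows and are not a test.

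**Figure D2:**
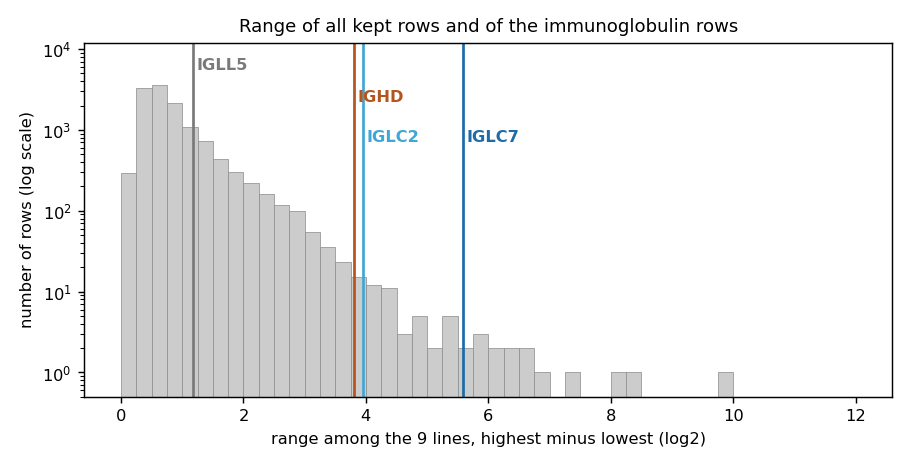
Number of kept rows (y axis, log scale) by their range among the 9 lines (x axis, highest minus lowest level in log2 units), with vertical lines at the ranges of the 4 immunoglobulin rows. IGLC7 (5.58), IGLC2 (3.95) and IGHD (3.81) stand in the sparse right part, and IGLL5 (1.17) stands among the bulk of the rows.

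The lambda constant rows did not keep a fixed ratio. The difference IGLC7 minus IGLC2 has no meaning as a level, because the rows are not per length, but its change among lines does not depend on length. In log2 units, line 1 had -1.84, line 2 had 0.41, line 3 had -2.75, line 4 had -2.02, line 5 had -2.90, line 6 had -3.44, line 7 had -0.31, line 8 had -2.18 and line 9 had -1.28. Lines 2 and 7 were shifted toward IGLC7 and line 6 toward IGLC2. The range was 3.85 log2 units, or 14.4-fold, and 3.13 log2 units without line 2. Lines 1 and 6 were both low in each lambda constant row, yet they differed in this ratio by 1.60 log2 units.

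All 6 pairs among the 4 rows were compared across the lines by Pearson's r and Spearman's rho. Two-sided exact permutation tests were run over all orders of the 9 lines, and p-values were adjusted over all rows tested against the same gene. No pair passed after this adjustment, which ran over 12589 rows for each gene and not over the 6 pairs alone. It is strict with 9 lines: a row at r = -0.94 with IGLC7 had an adjusted exact permutation p of 0.63. Not passing therefore says little about the pairs. The closest agreement was between the lambda constant rows. IGLC7 and IGLC2 gave r = 0.80 (exact permutation p = 0.0064, n = 9) and rho = 0.72 (exact permutation p = 0.037). The adjusted p of r was 0.63 over the rows tested against IGLC7 and 0.33 over those tested against IGLC2. Without lines 1 and 6, the 2 lines farthest from the IGLC7 median, r was 0.42, so the relation rests largely on those lines.

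IGHD ran opposite to IGLC7 in most lines. The values were r = -0.67 (exact permutation p = 0.050, n = 9) and rho = -0.77 (exact permutation p = 0.021). The adjusted p of r was 0.63 over the rows tested against IGLC7 and 0.31 over those tested against IGHD, and r was -0.53 without lines 1 and 6. Lines 1 and 6 held the 2 lowest IGLC7 levels together with 2 of the 3 highest IGHD levels, and lines 2, 7 and 9 held the 3 highest IGLC7 levels together with the 3 lowest IGHD levels. Line 3 departed from this order, with the highest IGHD level and a middle IGLC7 level, and without it r was -0.84. Line 5 departed too, being below the median of both rows, and without it r was -0.76. Leaving out each line in turn gave r from -0.84 to -0.61, the weakest being without line 7.

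Over all 9 lines IGHD and IGLC2 were less related, with r = -0.41 (exact permutation p = 0.29, n = 9) and rho = -0.23 (exact permutation p = 0.55). The value depended on the lines included: r was 0.12 without lines 1 and 6, and -0.73 without line 3 alone. IGHD and IGLL5 gave r = -0.58 (exact permutation p = 0.10, n = 9), rho = -0.42 (exact permutation p = 0.27) and r = -0.43 without lines 2 and 3. Without line 3 alone that r was -0.14. IGLL5 followed neither lambda constant row. Its r was -0.072 with IGLC7 (exact permutation p = 0.86, n = 9; rho = -0.05, exact permutation p = 0.91) and -0.15 with IGLC2 (exact permutation p = 0.68, n = 9; rho = -0.22, exact permutation p = 0.58). Without lines 1 and 6 these were 0.11 and 0.014.

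**Figure D3:**
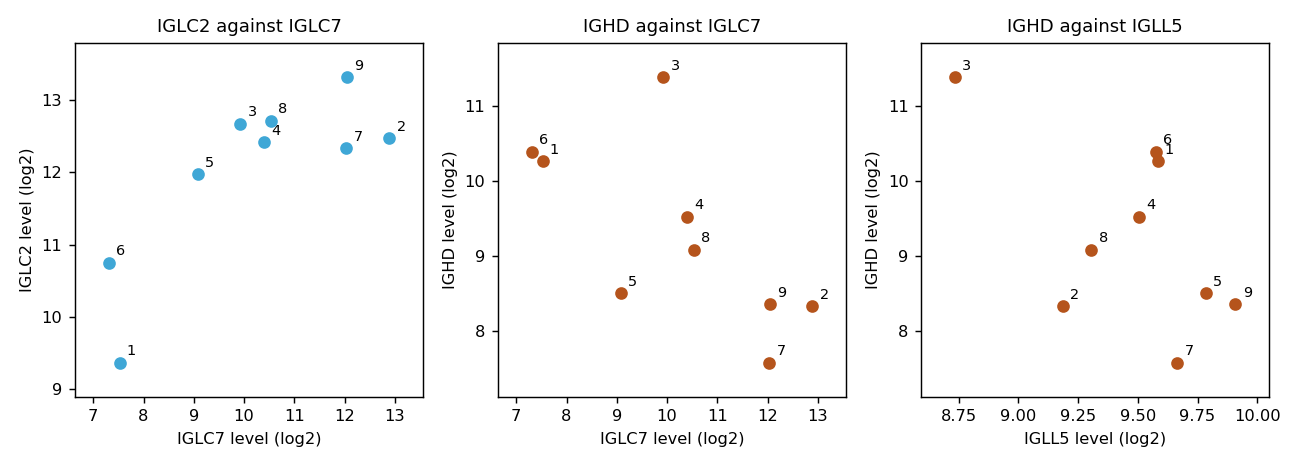
Levels of 2 rows against each other in log2 units, for IGLC2 against IGLC7, IGHD against IGLC7 and IGHD against IGLL5. Each point is 1 line with its number. Lines 1 and 6 stand apart at low IGLC7 in the first panel (r = 0.80 with them, 0.42 without), and line 3 stands above the others in the second panel.

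Each of the 4 rows was then tested against all other kept rows, 12589 in each case. With IGLC7, 0% of rows were called at an adjusted p under 0.05, while 7.66% (964 rows) had an unadjusted exact permutation p under 0.05. With IGLC2 the shares were 0% and 12.6% (1584 rows), and with IGLL5 they were 0% and 7.44% (936 rows). Spearman's rho also called 0 rows for these 3, with 555, 467 and 1122 rows at an unadjusted p under 0.05. With IGHD, 1 row was called (0.00794%) and 16.4% (2059 rows) had an unadjusted p under 0.05. Rows are not independent of each other.

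The row called with IGHD was ENSG00000182628, which the table does not name. Its level ran in the exact reverse order of IGHD over the 9 lines (r = -0.97, exact permutation p = 2.76e-06, adjusted p = 0.035, n = 9; rho = -1). That is the smallest p the 9 lines can give. The row itself moved little, between 9.68 and 10.15 log2 units. By Spearman's rho its adjusted p was 0.069.

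The rows most like IGLC7 are given by identifier, since the table does not name them. The closest were ENSG00000176894 (r = 0.92, exact permutation p = 8.0e-04, n = 9; rho = 0.90, exact permutation p = 0.0020) and ENSG00000152422 (r = 0.92, exact permutation p = 7.4e-04, n = 9; rho = 0.90, exact permutation p = 0.0020). The most opposite were ENSG00000188807 (r = -0.94, exact permutation p = 1.3e-04, n = 9; rho = -0.92, exact permutation p = 0.0013) and ENSG00000131381 (r = -0.92, exact permutation p = 9.5e-04, n = 9; rho = -0.80, exact permutation p = 0.014). The adjusted p of r was 0.63 for each of the 4, and the ranges of these rows were 0.45 to 0.69 log2 units, against 5.58 for IGLC7. Without lines 1 and 6, r was 0.89, 0.92, -0.89 and -0.79 in the same order.

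Genes that act with immunoglobulin were taken from lists of 47 genes. The table does not pair identifiers with symbols, and the pairs used for these genes were written from general knowledge of the human identifiers and could not be checked here. B cell identity was read from 11 genes, of which 10 passed the filter. CD79A, the signalling partner of surface immunoglobulin, lay between 11.03 and 11.55 log2 units, and PAX5, the factor that maintains B cell identity, lay between 10.62 and 10.98. Of 8 markers of T cells, NK cells, myeloid cells and fibroblasts, 6 had a row and 5 passed the filter. Their summed level was 24.5 ppm (line 9) to 47.9 ppm (line 4). The T cell gene CD3E lay between 1.66 and 2.06 log2 units, and the myeloid genes CD14 and LYZ had no row.

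Among the 10 B cell identity genes kept, r was positive for 5 and negative for 5 with IGLC7, with IGLC2 and with IGHD. With IGLL5 it was positive for 2 and negative for 8. Of these genes, 0 were called with IGLC7, IGLC2, IGLL5 or IGHD, and the median r was 0.027, -0.00049, -0.20 and 0.14 in that order. The second was 0.46 without line 1, and the third was 0.017 without line 3. The medians over all rows were -0.010, -0.047, 0.037 and -0.0041. At an unadjusted exact permutation p under 0.05, SYK and BTK, kinases of the B cell receptor, ran with IGLC2 (r = 0.81 and 0.71, adjusted p = 0.35 and 0.39), and BTK with IGLC7 (r = 0.67, adjusted p = 0.63). Without lines 1 and 6, r with IGLC2 was -0.37 for SYK and 0.0065 for BTK, and r of BTK with IGLC7 was -0.15. CD79A ran with IGHD (r = 0.70, exact permutation p = 0.037, adjusted p = 0.28, n = 9; rho = 0.65, exact permutation p = 0.067), and r was 0.69 without lines 3 and 7.

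Of 15 genes of antibody secretion and the plasma cell state, 0 were called with any of the 4 rows. With IGHD, r was negative for 13 of 15, with a median of -0.63 against -0.0041 over all rows. An unadjusted exact permutation p under 0.05 was reached by 6 of the 15 (40.0%), 5 with negative and 1 with positive r, against 16.4% of all rows. With IGLC7, r was positive for 13 of 15 (median 0.32 against -0.010 over all rows). It was positive for 11 of 15 with IGLC2 (median 0.44 against -0.047) and with IGLL5 (median 0.41 against 0.037). The shares at an unadjusted p under 0.05 lay nearer to those of all rows here. They were 13.3% against 7.66% with IGLC7, 13.3% (1 positive and 1 negative) against 12.6% with IGLC2, and 6.67% against 7.44% with IGLL5. The median with IGLC2 was -0.039 without line 1, and that with IGLL5 was 0.078 without line 3. With IGHD the median lay between -0.70 and -0.37 whichever line was left out, and it was -0.37 without line 3.

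With the lambda constant rows and IGLL5, few secretion genes stood out singly. FKBP11 ran with IGLL5, with r = 0.68 (exact permutation p = 0.048, adjusted p = 0.66, n = 9) and rho = 0.73 (exact permutation p = 0.031). ELL2 ran with IGLL5 by rho = 0.88 (exact permutation p = 0.0031), while its r was 0.53 (exact permutation p = 0.15, adjusted p = 0.71, n = 9). Without lines 2 and 3, r with IGLL5 was 0.39 for FKBP11 and 0.61 for ELL2. DERL3, which helps to clear misfolded proteins from the endoplasmic reticulum, ran with IGLC7 (r = 0.76, exact permutation p = 0.021, adjusted p = 0.63, n = 9; rho = 0.82, exact permutation p = 0.011) and with IGLC2 (r = 0.77, exact permutation p = 0.0080, adjusted p = 0.33, n = 9; rho = 0.77, exact permutation p = 0.021). Without lines 1 and 6 these r were 0.47 and 0.27. TNFRSF17, a survival receptor of plasma cells, ran with IGLC7, with r = 0.72 (exact permutation p = 0.029, adjusted p = 0.63, n = 9) and rho = 0.55 (exact permutation p = 0.13). Its r was 0.48 without lines 1 and 6. SEC11C, a subunit of the signal peptidase, ran against IGLC2 (r = -0.75, exact permutation p = 0.026, adjusted p = 0.37, n = 9; rho = -0.32, exact permutation p = 0.41), and its r was 0.29 without lines 1 and 6.

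PRDM1, the factor that drives plasma cell differentiation, had the most negative r with IGHD among the 15 secretion genes. Line 1 had a level of 7.25 log2 units, line 2 had 7.80, line 3 had 7.31, line 4 had 7.83, line 5 had 8.02, line 6 had 7.69, line 7 had 8.22, line 8 had 8.08 and line 9 had 7.999. Lines 1, 3 and 6, the highest for IGHD, were the 3 lowest for PRDM1, and line 7, the lowest for IGHD, was the highest. The values were r = -0.85 (exact permutation p = 0.0031, adjusted p = 0.17, n = 9), rho = -0.72 (exact permutation p = 0.037) and r = -0.71 without lines 3 and 7, the 2 farthest from the IGHD median.

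SDC1, a plasma cell surface proteoglycan, was lowest in lines 1 (7.05 log2 units) and 3 (7.58) and highest in line 5 (9.45). Its r with IGHD was -0.80 (exact permutation p = 0.0080, adjusted p = 0.20, n = 9; rho = -0.82, exact permutation p = 0.011). FKBP11, a folding enzyme of the endoplasmic reticulum, was also lowest in lines 3 (7.16) and 1 (7.29). Its r was -0.84 (exact permutation p = 0.0026, adjusted p = 0.17, n = 9; rho = -0.72, exact permutation p = 0.037). HSP90B1, a chaperone of the same compartment, gave r = -0.79 (exact permutation p = 0.0089, adjusted p = 0.21, n = 9; rho = -0.68, exact permutation p = 0.050). DERL3 gave r = -0.78 (exact permutation p = 0.015, adjusted p = 0.23, n = 9; rho = -0.70, exact permutation p = 0.043). Without lines 3 and 7, r was -0.69 for SDC1, -0.64 for FKBP11, -0.73 for HSP90B1 and -0.88 for DERL3.

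XBP1, a transcription factor of the secretory programme, ran the other way. It lay between 11.88 and 12.44 log2 units, was highest in line 3 (12.44) and line 6 (12.36), and gave r = 0.73 with IGHD (exact permutation p = 0.028, adjusted p = 0.26, n = 9; rho = 0.72, exact permutation p = 0.037). JCHAIN, which joins IgM and IgA into polymers, was lowest in line 3 (14.84 log2 units) and highest in line 4 (16.02), with r = -0.64 (exact permutation p = 0.062, adjusted p = 0.32, n = 9; rho = -0.37, exact permutation p = 0.34), and r was -0.28 without lines 3 and 7. IRF4, a factor of both activated B cells and plasma cells, varied over 0.59 log2 units and gave r = -0.12 with IGHD (exact permutation p = 0.75, adjusted p = 0.88, n = 9).

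RAG1, a recombinase of light chain and heavy chain rearrangement, lay below the filter, between 3.23 and 4.06 log2 units, and RAG2 had no row. Of the surrogate light chain genes of B cell precursors, VPREB1 lay between 5.68 and 6.57 log2 units and IGLL1 had no row. VPREB3, a relative of VPREB1, lay between 4.33 and 5.36 log2 units. VPREB1 gave r = -0.74 with IGLL5 (exact permutation p = 0.016, adjusted p = 0.63, n = 9) and rho = -0.70 (exact permutation p = 0.043). Without lines 2 and 3 that r was -0.56.

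**Figure D4:**
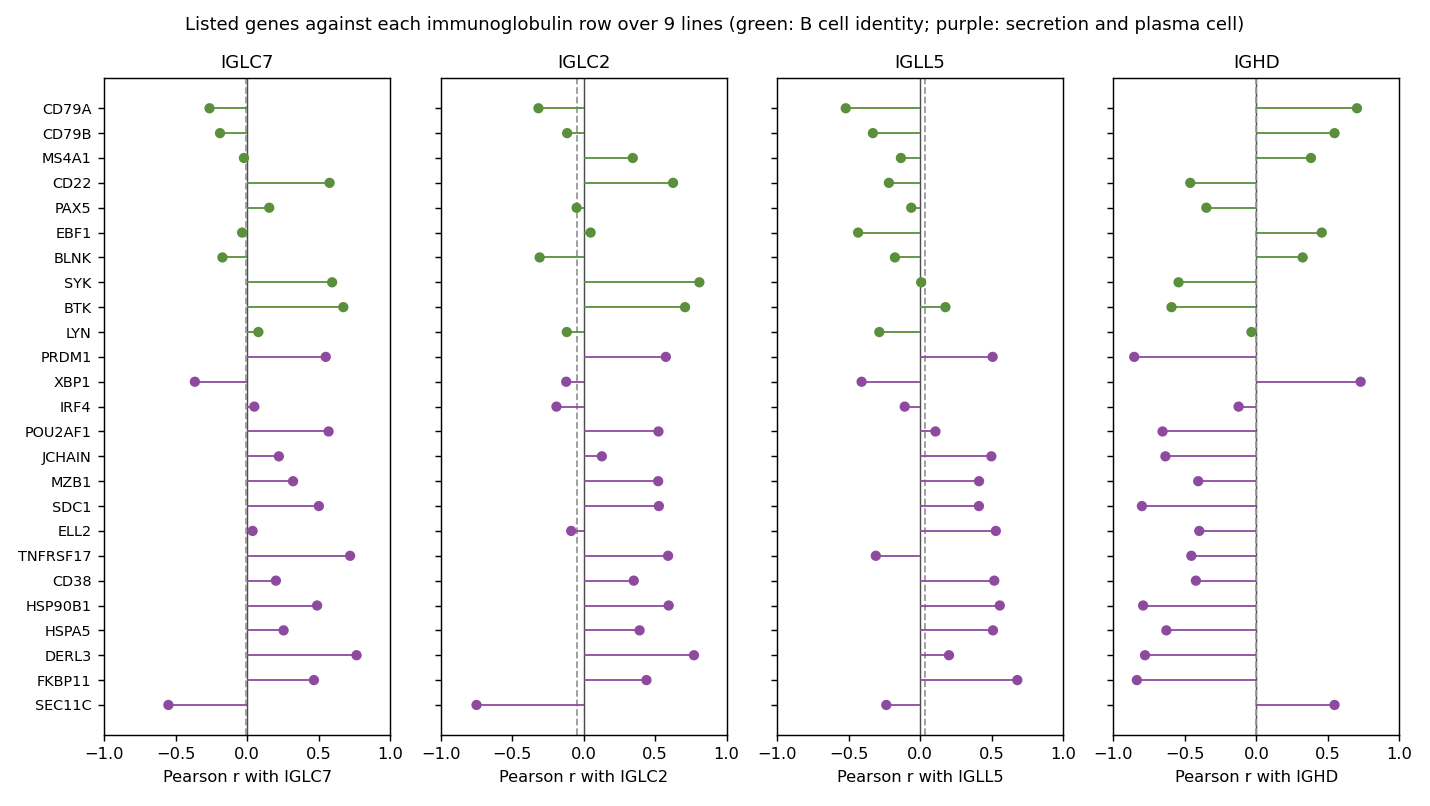
Pearson's r over the 9 lines (x axes) of the 10 B cell identity genes (green) and 15 secretion and plasma cell genes (purple) with IGLC7, IGLC2, IGLL5 and IGHD. The dashed line marks the median r over all kept rows. With IGHD, 13 of the 15 purple genes lie to the left of 0 and XBP1 and SEC11C lie to the right.

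Other properties of the lines moved with IGHD. The 3 lines with the highest IGHD, lines 1, 3 and 6, were also the 3 with positive scores on the first principal component of all kept rows, which held 34.2% of the variance. Lines 1 and 6 scored highest (47.96 and 20.18) and were also the lowest lines for IGLC7 and IGLC2. Among the markers of other cell types, the T cell gene CD3D gave r = -0.82 with IGHD (exact permutation p = 0.0064, adjusted p = 0.20, n = 9; rho = -0.72, exact permutation p = 0.037), at levels between 4.72 and 6.60 log2 units. The other 4 kept markers had r between -0.14 and 0.45. The part of the component or of CD3D in the relations with IGHD was not tested. Nor was the part of the component in the relations with IGLC7 and IGLC2.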

How the data were processed

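RNA-seq of 9 EBV-transformed gibbon lines was used, as 1 group. Libraries were made from total RNA with a TruSeq kit, per the labels' protocols. Trimmomatic, DESeq2, edgeR and STAR are named in the submitters' processing notes, without versions or roles. The single table deposited by the authors holds normalized values on a log scale, treated here as log2. For the scaling method, log base, genome build and annotation, the answer is not given in the sources used here. If a shrinking transformation was applied, differences in low rows are reduced. All 9 columns were matched by name, and 0 columns of per-sample values were left unused.

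The gene names of the 10 identifiers came with the list. The RefSeq table for Asia_NLE_v1 (33914 genes) holds 0 Ensembl identifiers. It has 1 of the 10 names (IGLL5) and 39 of the 47 other symbols, and it cannot check a pair. The members and lists were chosen with earlier results of these data known. Some genes of the lists are not reported here.

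The filter kept rows whose mean level reached 1 ppm. Ranges were taken on the log2 scale with no pseudocount. Correlations were computed with numpy 2.4.6 in Python 3.11.15. Each p is the share of the 362880 orders of the lines whose absolute r was at least that observed. Benjamini-Hochberg adjustment ran over all kept rows for each gene, with a threshold of 0.05, and the test was tried on simulated data. The text names the 10 genes, genes of the fixed lists, and the 2 rows most like and most unlike IGLC7. The row called with IGHD was added after its value was seen. The difference IGLC7 minus IGLC2 replaced the planned difference of kappa and lambda. Alternatives were other scalings, a pseudocount of 1, other filters, Spearman's rho and leaving out each line.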

Additional observations from a re-analysis of the deposited data

Results flagged for a closer look

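Of 39 sets of 9 values checked for a line far from the others, 2 gave one, and chance flags about 1 in 20. Neither was an immunoglobulin row. GNLY, a granule protein of NK and T cells, stood at 8.27 log2 units in line 4, with the next line at 6.12. CSF1R, a receptor of myeloid cells, stood at 5.71 log2 units in line 5, with the next line at 4.77. IGLC7, IGLC2, IGLL5 and IGHD had no such line, and neither had the difference of the lambda rows.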

How the results depend on the processing

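Under the 2 other scalings, the pseudocount of 1 and the 2 other filters, all 4 immunoglobulin rows spanned at least 2-fold and 3 spanned at least 4-fold. Leaving out a line gave 3 to 4 and 3 such rows, since IGLL5 fell below 2-fold without line 3. The number of rows called with IGLC7, IGLC2 and IGLL5 was 0 under every setting run. The 1 row called with IGHD was lost, leaving 0, by Spearman's rho, by quantile normalization (adjusted p = 0.078) and without each line in turn (adjusted p 0.094 to 0.21 for that row, where 8 lines give only 40320 orders). Its r was -0.96 with quantile normalization and -0.98 to -0.96 with a line left out. With a line left out, r of IGLC7 and IGLL5 lay between -0.28 and 0.10 and r of IGLC2 and IGLL5 between -0.42 and 0.013, so neither has a settled sign. The other 4 pairs kept their sign in these settings. Of those, IGLC2 and IGHD did not keep it when lines 1 and 6 were both left out (r = 0.12). No scaling moved the median of a line by more than 0.012 log2 units. No paired analysis was possible because the 9 lines form a single group. The planned difference of kappa and lambda was not run, since IGKC had no row. Depth is unknown, so counting error could not be separated from the spread among lines.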
